A study of Mus musculus with 15 samples.

Results

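The chromosome 8 genes that lie within 10 Mb of Apela in the mouse genome were followed in embryos that lack Apela. A gene belonged to the set when the midpoint of its annotated span lay in that window (GRCm38, GENCODE annotation) and its mean normalized count over all 15 libraries was at least 10. Of the 255 genes of the window in the expression table, 55 were at 0 in every library, 50 were above 0 but below the minimum, and Apela itself and 3 further genes were left out by name. The remaining 146 genes, of 16430 genes tested in all, included 138 protein-coding genes. The window is unevenly filled: 23 of the genes lie at smaller coordinates than Apela and 123 at larger coordinates, 86 of them between 5 and 7.5 Mb away.

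RNA was sequenced from individual whole embryos at embryonic day 7.5, embryonic and extraembryonic tissue together, on a mixed background of C57Bl6 and CD-1. The groups were 6 homozygous Apela KO embryos of the NEO-IN strain (embryos 1 to 6), 6 homozygous Apela KO embryos of the NEO-OUT strain (embryos 7 to 12) and 3 wild-type embryos (1 to 3). Knockout embryos came from crosses between homozygous knockout parents, and embryos were matched in stage by morphology. The labels do not describe the NEO-IN and NEO-OUT alleles further, and give no litter, sex or batch.

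Apela encodes a short secreted peptide, also called Elabela or Toddler, that binds the apelin receptor and acts in early mesoderm and heart development. An allele made by gene targeting is inherited together with the DNA around it, so homozygous mutants are commonly also homozygous for the neighbouring segment of the chromosome in which the allele was made, whereas wild-type embryos of an outbred or mixed colony can carry other versions of that segment. The genotype of that segment was not measured in these embryos, so loss of Apela and a difference in the DNA around it cannot be told apart for the genes described here. In whole embryos, fewer cells of a type and less RNA per cell cannot be told apart either.

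The called genes with the largest differences between knockout and wild-type lay more than 5 Mb from Apela on its larger-coordinate side. Sequence at the start of 3 genes on that side, B3gnt3, Bst2 and Ocel1, and the whole of a small nucleolar RNA, Snora68, are shown because all 4 changed in knockout embryos. The promoter windows run from 250 bases before to 50 bases after the RefSeq start (GRCm38.p6): chr8:71701751-71702050 on the minus strand for B3gnt3, chr8:71537423-71537722 on the minus strand for Bst2 and chr8:71371048-71371347 on the plus strand for Ocel1. Snora68 is the GENCODE transcript at chr8:70895759-70895889 on the minus strand. Capitals mark matches, on either strand, to the GC box GGGCGG, to CCAAT or to GAAA followed by any pair of bases and a further GAAA, the core of the response element through which interferon acts, and in Snora68 the ACA box that lies 3 bases before the end of this class of RNA.
B3gnt3: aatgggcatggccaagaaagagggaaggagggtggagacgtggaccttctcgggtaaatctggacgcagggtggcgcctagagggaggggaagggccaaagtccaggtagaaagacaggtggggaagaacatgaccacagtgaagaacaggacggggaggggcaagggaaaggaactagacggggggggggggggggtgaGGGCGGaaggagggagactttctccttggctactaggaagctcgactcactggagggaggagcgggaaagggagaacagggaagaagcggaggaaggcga
Bst2: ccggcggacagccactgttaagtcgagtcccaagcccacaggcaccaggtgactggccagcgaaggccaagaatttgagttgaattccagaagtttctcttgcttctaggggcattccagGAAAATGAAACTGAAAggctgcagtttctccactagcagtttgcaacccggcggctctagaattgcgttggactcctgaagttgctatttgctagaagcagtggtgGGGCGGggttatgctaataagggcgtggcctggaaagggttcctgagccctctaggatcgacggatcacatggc
Ocel1: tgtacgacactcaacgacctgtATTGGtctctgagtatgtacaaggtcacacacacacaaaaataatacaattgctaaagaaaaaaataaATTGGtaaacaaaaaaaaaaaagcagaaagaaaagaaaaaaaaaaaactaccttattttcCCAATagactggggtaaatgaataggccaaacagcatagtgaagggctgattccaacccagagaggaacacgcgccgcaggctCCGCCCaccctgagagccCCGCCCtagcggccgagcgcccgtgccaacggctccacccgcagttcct
Snora68: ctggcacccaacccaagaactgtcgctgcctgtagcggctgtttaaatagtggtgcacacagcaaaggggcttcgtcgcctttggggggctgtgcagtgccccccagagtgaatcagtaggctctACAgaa
The Bst2 window holds 2 overlapping copies of the interferon element core, and the B3gnt3 window a single GC box. The Ocel1 window holds 3 copies of CCAAT and 2 of the GC box. This core was found in 3.49% of all 27025 promoter windows of the table, GGGCGG in 35.9%, CCAAT in 37.9% and the TATA box TATAAA in 14.2%. Windows were at hand for 113 of the 146 genes, and these motifs occurred in 7, 78, 48 and 4 of them in the same order. A match describes the letters only.

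The libraries held between 48.8 and 61.3 M recovered reads each. Apela RNA, which checks the labels, was between 5.83 and 25.9 normalized counts in NEO-IN embryos, between 50.6 and 107 in NEO-OUT embryos, and 2004, 1902 and 1082 in wild-type embryos. Reads of Y-linked genes were abundant in NEO-IN embryos 1, 2 and 3 and NEO-OUT embryos 9 and 12 and next to absent in the other libraries, the 3 wild-type ones included. Among markers of the tissues such embryos hold, summed levels of 7 epiblast and primitive streak genes were 23047 to 31353 in NEO-IN, 23087 to 34929 in NEO-OUT and 29465 to 32461 in wild-type, with 1 of the 7 called in knockout versus wild-type. Of 30 markers of visceral endoderm, parietal endoderm, trophoblast, primitive blood, maternal decidua and macrophages, 0 were called by limma, against 2.83% of all genes. By limma, 3 had an unadjusted p under 0.05, and no marker was at 0 in every library. Summed decidua markers were 721 to 863 in NEO-OUT, below the 922 to 986 of wild-type, and 765 to 1181 in NEO-IN. Summed primitive blood markers were 3069 to 6219 in NEO-IN, above the 2755 to 3034 of wild-type, and 2075 to 8145 in NEO-OUT. The other summed ranges overlapped wild-type in both strains.

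The first comparison asked whether genes around Apela differ in RNA level between Apela KO and wild-type embryos, with the knockout value taken as the mean of both strain effects. By limma (Benjamini-Hochberg adjusted p under 0.05 over all 16430 genes, called below), 29 of them changed, or 19.9%, against a background of 2.83% of all genes tested. Of these, 15 rose and 14 fell, against backgrounds of 1.61% and 1.22%. The median size of the log2 fold change, on the scale of log2(normalized count + 1) and without regard to sign, was 0.18 for the 146 genes and 0.10 for all genes. The median with its sign was 0.03 and 0.00, and 82 of the 146 values were positive.

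A count that uses no model, on the same 15 libraries, gave the same number, though for a partly different set of genes. For 29 of the 146 genes, or 19.9%, all 12 knockout embryos lay outside the range of the 3 wild-type embryos on the same side, against 3.39% of all genes, and 23 of these genes were among those called. The other 6, named here after their values were seen, were the actin-associated Palld, the zinc-finger genes Zfp868 and Zfp866, Hapln4, Cers1 and Rab3a. Changes were mostly moderate: 6 genes were called and changed at least 2-fold, or B3gnt3, Gdf15, Snora68, Pde4c, Gm17435 and Ocel1, where 0.542% of all genes did so.

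Distance from Apela did not order the calls. Within 2.5 Mb of Apela, none of 13 genes was called in knockout versus wild-type by limma, while 3 had an unadjusted p under 0.05. Of all 16430 genes, 2.83% were called and 3036 had an unadjusted p under 0.05 by limma. On the recovered reads, edgeR and DESeq2 called 0 of the 13 too, with 3 and 2 genes at an unadjusted p under 0.05. The 13 genes were weaker and more variable than the 86 genes between 5 and 7.5 Mb. Their median normalized count was 236 against 1033, and their median within-group SD on the log2 scale 0.220 against 0.129. Between 2.5 and 5 Mb on the larger-coordinate side 2 of 24 genes were called, and between 5 and 7.5 Mb 24 of 86, or 27.9%. Of the 28 genes between 6 and 7 Mb, 10 were called, or 35.7%. On the smaller-coordinate side 2 of 23 genes were called, Hmgb2 at 7.52 Mb and Cbr4 at 3.54 Mb from Apela. At the edges of the window, Hpgd and Hmgxb4 just inside had log2 fold changes of 0.00 and -0.03, and Gpm6a and Tom1 just outside had -0.21 and 0.12; none of these 4 was called.

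**Figure D1:**
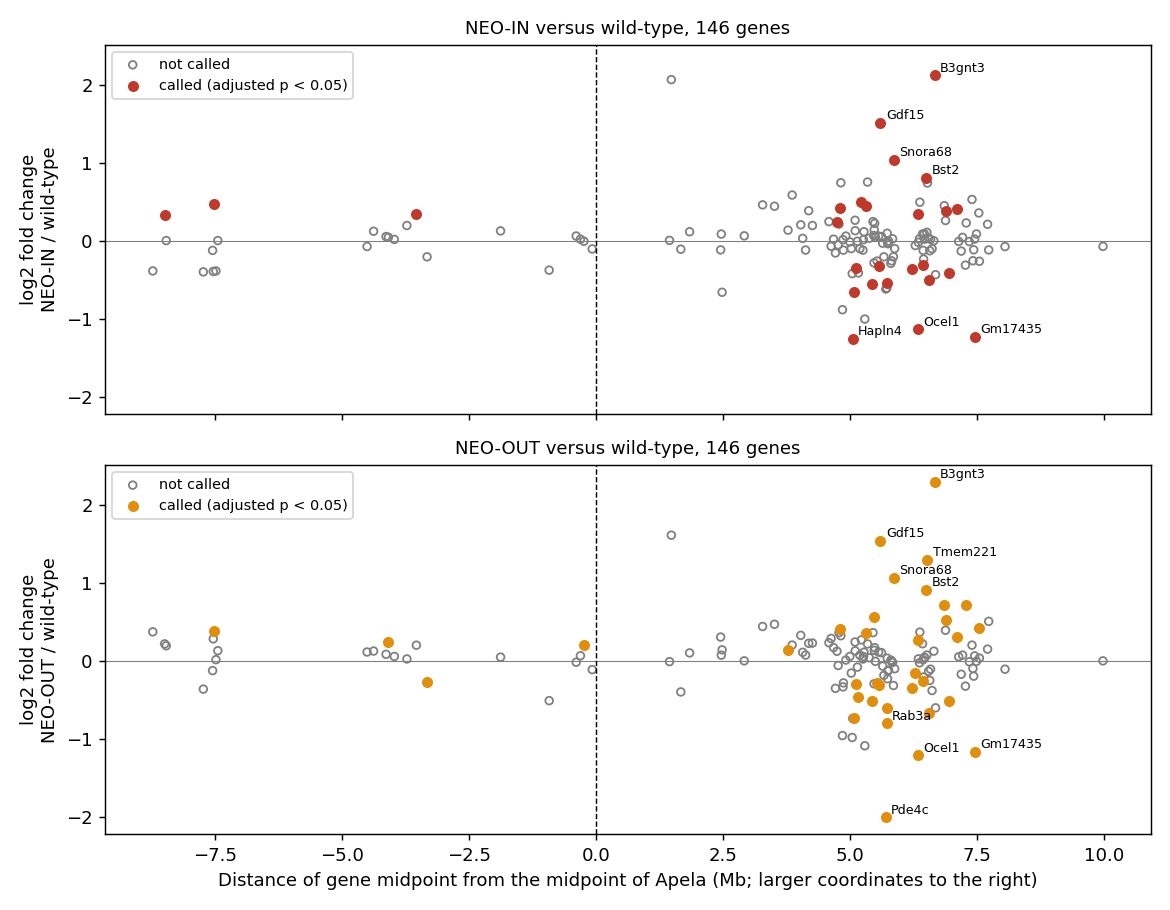
Log2 fold change of the 146 genes against the distance of their midpoint from that of Apela in Mb, for NEO-IN over wild-type (upper panel) and NEO-OUT over wild-type (lower panel); filled points were called by limma and names mark called genes beyond 0.75 in size. In both panels the called genes sit mainly between 5 and 7.5 Mb on the right. There, 24.4% of 86 genes were called in NEO-IN and 32.6% in NEO-OUT. Of the 13 genes within 2.5 Mb, 0 were called in NEO-IN and 1, Klhl2, in NEO-OUT. Of all genes tested, 2.98% were called in NEO-IN and 6.35% in NEO-OUT.

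Beyond the window the share of called genes on chromosome 8 did not fall steadily. In knockout versus wild-type it was 5.74% of 122 genes between 10 and 20 Mb from Apela, 16.7% of 108 genes between 20 and 30 Mb, 5.65% of 248 genes between 30 and 50 Mb and 2.29% of 218 genes farther away. Among 15525 genes on other chromosomes it was 2.52%. No test of the difference between these shares was made, as neighbouring genes are not independent.

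**Figure D2:**
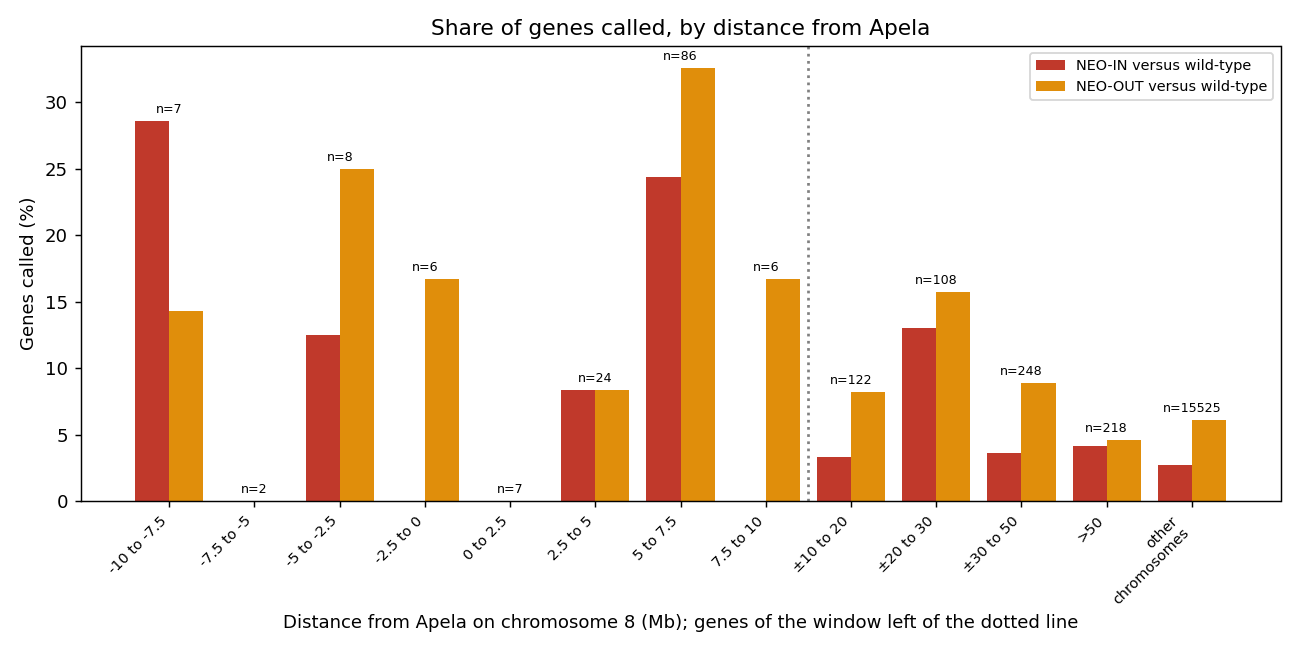
Percentage of genes called against wild-type in NEO-IN (left bar of each pair) and NEO-OUT (right bar), by signed distance from Apela for the 146 genes and by distance to either side for other chromosome 8 genes; the number of genes is above each pair. The tallest pair with many genes is that from 5 to 7.5 Mb (24.4% and 32.6% of 86), followed by that from 20 to 30 Mb (13.0% and 15.7% of 108), and bins with fewer than 10 genes move by more than 10 percentage points with a single gene.

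For this and the later lists of genes by role, 19.9% of all 146 genes and 2.83% of all genes tested were called. The lists were chosen with earlier results of these data known, and no list was tested as a set. Of 7 genes listed for glycans and proteoglycans, 1 rose, B3gnt3, and 1 fell, Ncan. In 3 of the 7 the log2 fold change was positive, and the median was -0.04. B3gnt3 had the largest log2 fold change of the 146 genes. It encodes a glycosyltransferase that adds N-acetylglucosamine to extend sugar chains on proteins, and lies 6.66 Mb from Apela (chr8:71690756-71701789, minus strand). Its normalized counts were 423, 486 and 538 (lowest, median and highest) in NEO-IN embryos, 436, 552 and 686 in NEO-OUT embryos, and 64.4, 75.2 and 262 in the 3 wild-type embryos. All 12 knockout embryos lay above all wild-type embryos, and wild-type embryo 3 stood apart from the other two. B3gnt3 rose 4.64-fold (log2 fold change 2.21, limma SE 0.27, adjusted p = 0.000228). Without wild-type embryo 3 its log2 fold change was 2.85 (adjusted p = 2.02e-08), and without wild-type embryo 1 it was 1.84 (adjusted p = 0.00456). Ncan, which encodes neurocan, a chondroitin sulphate proteoglycan of the nervous system, fell in knockout embryos: it had 151, 185 and 252 normalized counts (lowest, median and highest) in NEO-IN, 155, 181 and 219 in NEO-OUT, and 324, 313 and 260 in the wild-type embryos. The groups did not overlap, with a log2 fold change of -0.69 (limma SE 0.15, adjusted p = 0.018). Its neighbour Hapln4, which encodes a link protein that binds hyaluronan and proteoglycans, was at 20.4 to 63.6 in NEO-IN, 38.2 to 82.2 in NEO-OUT and 89.4 to 132 in wild-type; against wild-type its limma adjusted p was 0.0375 for NEO-IN and 0.169 for NEO-OUT, and the difference between the strains was not called (0.196).

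Bst2 encodes tetherin, a membrane protein induced by interferon that holds budding enveloped viruses at the cell surface, and its promoter window carries the doubled interferon element core shown above. It had 1523, 1660 and 1717 normalized counts in NEO-IN embryos, 1403, 1715 and 2353 in NEO-OUT embryos and 921, 876 and 1027 in the wild-type embryos (chr8:71534255-71537456). No knockout embryo overlapped the wild-type range, and Bst2 rose by a log2 fold change of 0.86 (limma SE 0.10, adjusted p = 0.000176). Of the 4 listed genes with links to interferon or vessels, Bst2 was the only one called; Plvap, which encodes an endothelial protein of the diaphragms of small vesicles and is a close neighbour of Bst2, had a log2 fold change of 0.03 (SE 0.16). Tll1, a metalloprotease of the tolloid family that processes matrix and BMP antagonists, was at -0.44 (SE 0.19) and was not called.

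Genes for signals and receptors moved in both directions. Lpar2, a receptor for the lipid lysophosphatidic acid, had 3833, 3877 and 4555 normalized counts in NEO-IN, 3923, 3989 and 4073 in NEO-OUT and 2897, 2711 and 3394 in wild-type. All knockout embryos were above all wild-type embryos, and Lpar2 rose by 0.42 on the log2 scale (limma SE 0.06, adjusted p = 0.0007). Gdf15, a stress-induced secreted factor of the TGF-beta superfamily, was close to the expression minimum. It had 9.76, 17.7 and 21.3 normalized counts in NEO-IN, 9.54, 16.7 and 29.96 in NEO-OUT and 4.16, 5.94 and 5.59 in wild-type. The groups did not overlap, and Gdf15 rose by 1.53 on the log2 scale (limma SE 0.32, adjusted p = 0.0156). Pde4c, which encodes a phosphodiesterase that degrades cyclic AMP, fell by 1.31 on the log2 scale (limma SE 0.32, adjusted p = 0.0363), with a difference between the strains that is described further on. Of 13 genes listed as signalling genes, receptors or ligands, 1 rose (Gdf15) and 1 fell (Pde4c); Lpar2 was listed with lipid metabolism, where 2 of 9 genes rose and none fell. The second of these was Cbr4, a reductase of mitochondrial fatty acid synthesis (log2 fold change 0.28, limma SE 0.07, adjusted p = 0.0371).

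Among genes of the cytoskeleton, the actin-binding tropomyosin gene Tpm4 was one of the most abundant of the set. Its normalized counts were 22063, 23390 and 24550 in NEO-IN, 20798, 21546 and 23361 in NEO-OUT and 17053, 17018 and 18830 in wild-type. The groups did not overlap, and Tpm4 rose by 0.36 on the log2 scale (limma SE 0.05, adjusted p = 0.000269). Haus8, a subunit of the augmin complex that nucleates microtubules in the spindle, fell: it had 1549, 1649 and 1719 normalized counts in NEO-IN, 1513, 1710 and 1792 in NEO-OUT and 2353, 2115 and 1893 in wild-type (log2 fold change -0.35, limma SE 0.06, adjusted p = 0.0063). These were the 2 called genes of the 8 in this list. In membrane traffic, the endoplasmic reticulum SNARE gene Use1 rose (0.31, SE 0.07) and was the only one called of 13. Rab3a, a small GTPase of secretory vesicles, had a log2 fold change of -0.70 (limma SE 0.18, adjusted p = 0.0501). Borcs8, a subunit of a complex that positions lysosomes, was in no list and fell (-0.32, SE 0.07).

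Genes acting in the nucleus and on RNA mostly rose where they were called. Hmgb2, an abundant chromatin protein that bends DNA, lies on the other side of Apela from nearly all other called genes (chr8:57511907-57515999). It had 31325, 32743 and 35414 normalized counts in NEO-IN, 26953, 32198 and 33724 in NEO-OUT and 24657, 24577 and 22138 in wild-type. The groups did not overlap, and Hmgb2 rose by 0.43 on the log2 scale (limma SE 0.06, adjusted p = 0.000643), the only one called of 8 chromatin and repair genes. Sin3b, a scaffold of a histone deacetylase complex, had a log2 fold change of 0.18 (SE 0.10) and was not called. Upf1, the RNA helicase of nonsense-mediated decay, had 7769, 8740 and 9538 normalized counts in NEO-IN, 7925, 8168 and 8569 in NEO-OUT and 5958, 5760 and 7545 in wild-type. It rose by 0.41 (limma SE 0.07, adjusted p = 0.00415), as did Sugp2, a relative of splicing factors (0.38, SE 0.08), and Ints10, a subunit of the Integrator complex that cleaves nascent RNA (0.14, SE 0.03). Mrpl34, a protein of the mitochondrial ribosome, fell (-0.28, SE 0.06), so that 3 of 12 RNA processing and translation genes rose and 1 fell.

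Of 17 transcription factors and cofactors in the set, 2 rose and 1 fell, and 15 had positive log2 fold changes, where 8006 of all 16430 genes did. The median log2 fold change was 0.19, against 0.00 for all genes. The rises were in Zfp617 (0.46, limma SE 0.08, adjusted p = 0.0035) and Zfp709 (0.59, limma SE 0.15, adjusted p = 0.0415), both zinc-finger genes, and the fall was in Ell, an elongation factor of RNA polymerase II (-0.27, limma SE 0.06, adjusted p = 0.0356). Other zinc-finger genes of the window are outside the list: Zfp963, named after its values were seen, had a log2 fold change of -0.25 (SE 0.17) and was not called, and Zfp961, next to Zfp617, fell. Zfp961 had 1868, 2045 and 2145 normalized counts in NEO-IN, 1778, 1877 and 1961 in NEO-OUT, and 2900, 3128 and 2108 in wild-type. Wild-type embryo 3 lay among the NEO-IN values, and 10 of 12 knockout embryos were below the wild-type range (log2 fold change -0.46, limma SE 0.08, adjusted p = 0.00576). Without wild-type embryo 3 the log2 fold change was -0.63 (limma adjusted p = 1.73e-05). Zfp961 was no longer called without wild-type embryo 1 (-0.40, limma adjusted p = 0.0656) or 2 (-0.34, limma adjusted p = 0.0743). Genes of this family resemble each other in sequence, so reads could have been shared between copies, and their values are uncertain to that extent.

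Pgls, Mpv17l2 and Slc25a42, which are in none of the lists, fell. Pgls encodes 6-phosphogluconolactonase, an enzyme of the pentose phosphate pathway, and had the smallest adjusted p of the set. Its normalized counts were 1759, 1973 and 2121 in NEO-IN, 1621, 1753 and 1899 in NEO-OUT and 2971, 2846 and 2516 in wild-type (chr8:71592176-71601092). The groups did not overlap, and Pgls fell by 0.58 on the log2 scale (limma SE 0.06, adjusted p = 5.84e-05). Mpv17l2, a mitochondrial inner membrane protein, had 494, 565 and 670 normalized counts in NEO-IN, 467, 545 and 635 in NEO-OUT and 896, 794 and 818 in wild-type (log2 fold change -0.56, limma SE 0.09, adjusted p = 0.00305). Slc25a42, a mitochondrial carrier of coenzyme A, fell by 0.43 (limma SE 0.10, adjusted p = 0.031).

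Genes with less well described roles completed the list. Ocel1, named for a domain shared with occludin and Ell, had 47.9, 59.2 and 65.9 normalized counts in NEO-IN, 40.5, 52.8 and 79.3 in NEO-OUT and 164, 131 and 96.9 in wild-type. The groups did not overlap, and Ocel1 fell 2.25-fold (log2 fold change -1.17, limma SE 0.20, adjusted p = 0.00437). Klhl26, of the kelch family, had 643, 718 and 757 normalized counts in NEO-IN, 622, 743 and 773 in NEO-OUT and 1170, 986 and 943 in wild-type, and fell by 0.53 (limma SE 0.08, adjusted p = 0.00144). Ssbp4, a member of a family of proteins that bind single-stranded DNA, fell (-0.31, SE 0.07), and Smim7, a small membrane protein, rose (0.39, SE 0.09). Snora68, the small nucleolar RNA printed above, had 37.1, 47.6 and 64.0 normalized counts in NEO-IN, 45.1, 47.8 and 68.4 in NEO-OUT and 20.8, 17.8 and 34.5 in wild-type, and rose by 1.06 (limma SE 0.22, adjusted p = 0.016). Such RNAs lie inside introns of a host gene and are not polyadenylated, so in these poly(A) libraries its reads cannot be told from those of its host. Gm17435, an antisense transcript named here after its values were seen, had 48.8 to 73.8 normalized counts in NEO-IN, 51.1 to 98.7 in NEO-OUT and 120 to 154 in wild-type (log2 fold change -1.20, limma SE 0.19, adjusted p = 0.00264).

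Annotated overlaps limit some of these values, since it is not stated whether counting used strand. Among the 29 called genes, 6 share bases with a gene on the same strand, such as Ncan, Pgls and Snora68, and 9 with a gene on the other strand. Of those 9, Upf1 overlaps Cers1, Mpv17l2 overlaps Rab3a, Ocel1 overlaps Nr2f6, Haus8 overlaps Myo9b, Zfp961 overlaps Cyp4f18 and Gm17435 overlaps Med26.

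**Figure D3:**
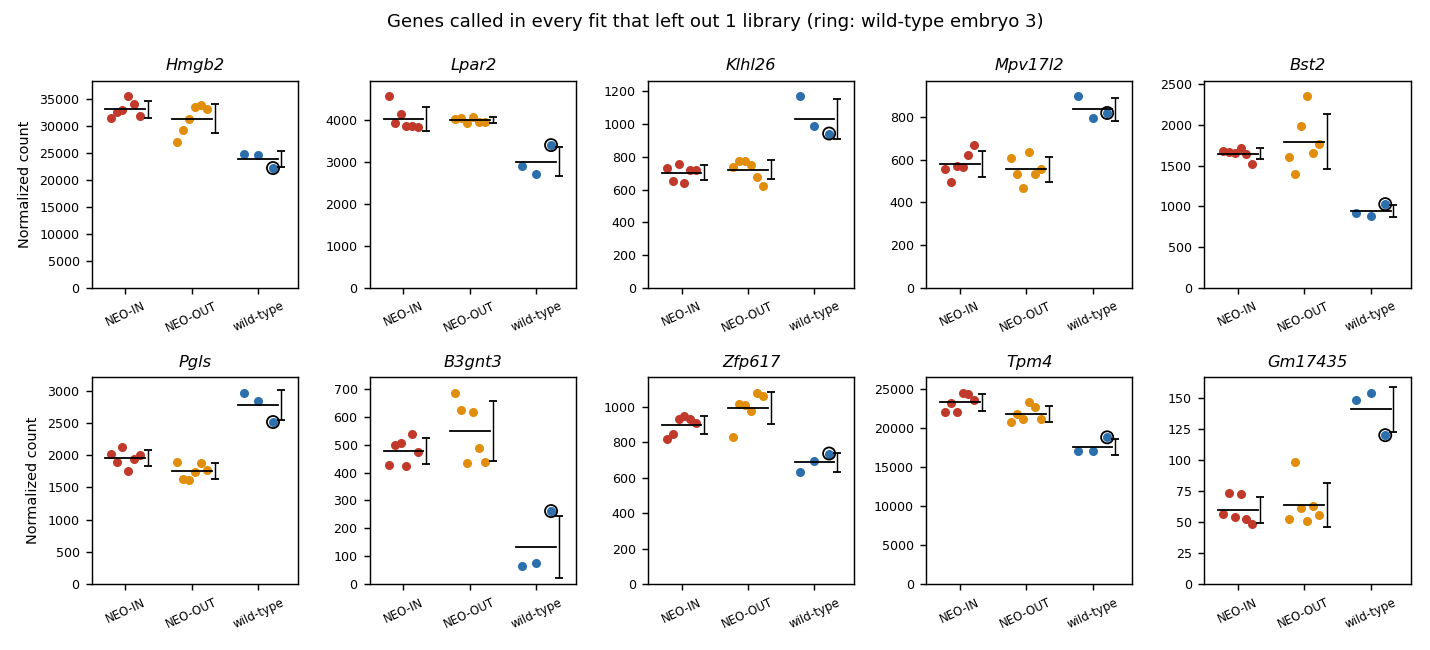
Normalized counts per embryo (points; line, mean; bar, SD; axes start at 0) of the 10 genes that were called in knockout versus wild-type by limma in the full fit and in all 15 fits that left out 1 library, in the order of their position on the chromosome. In every panel the 12 knockout embryos lie on one side of the 3 wild-type embryos, and the ringed point, wild-type embryo 3, is the wild-type embryo nearest to the knockouts in Lpar2, Klhl26, Bst2, Pgls, B3gnt3, Zfp617, Tpm4 and Gm17435.

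Wild-type embryo 3 lay between the other wild-type embryos and the knockouts in a run of these genes. Among the 29 called genes it was the wild-type embryo nearest to the knockout mean in 20, or 69.0%, embryo 1 in 5 and embryo 2 in 4. Among the 436 called genes that are not in the set, the shares were 36.0% for embryo 3, 34.4% for embryo 1 and 29.6% for embryo 2. From Haus8 at 6.23 Mb to Gm17435 at 7.47 Mb from Apela it was nearest in 11 of 12 called genes, with Use1 the exception. From Ell at 5.53 Mb to Mpv17l2 at 5.73 Mb it was nearest in none of 5. The ends of both stretches were chosen after these values were seen. In Smim7, the next called gene at 7.54 Mb, embryo 1 was nearest. These counts describe genes that were called with the same embryos and are no test. Apela itself was lower in embryo 3, at 1082 normalized counts, than in embryos 1 and 2, at 2004 and 1902. Without embryo 3, 21 of the 146 genes were called, against 1.22% of all genes.

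With 3 wild-type embryos, the number of calls depended on each of them. Without wild-type embryo 1, 10 of the 146 genes were called, against 0.931% of all genes, and without embryo 2 it was 12, against 0.974%. Of the 28 called genes other than Gm17435, 9 kept the call in all 15 fits that left out 1 library: B3gnt3, Bst2, Hmgb2, Klhl26, Lpar2, Mpv17l2, Pgls, Tpm4 and Zfp617. Gm17435 kept it too. The other 19 lost it without wild-type embryo 1, with limma adjusted p of 0.0515 (Upf1) to 0.198 (Pde4c). All of these but Haus8 and Ocel1 also lost it without wild-type embryo 2, with adjusted p of 0.0557 (Upf1) to 0.223 (Zfp709). Without wild-type embryo 3 it was lost in Cbr4, Ell, Gdf15, Ints10, Pde4c, Slc25a42, Smim7, Ssbp4 and Use1, with adjusted p of 0.0587 (Gdf15) to 0.165 (Slc25a42). Of the same genes, Cbr4, Ell, Ints10, Pde4c and Zfp709 also lost it without 1 of the knockout embryos NEO-IN 1, 2, 4, 5 or 6 or NEO-OUT 10, 11 or 12, with adjusted p of 0.05 to 0.0589. Among the 10 libraries without Y-linked reads, 17 of the 146 genes were called, against 2.15% of all genes.

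Each strain was next set against the same 3 wild-type embryos, so these comparisons share their controls. In NEO-IN versus wild-type 26 of the 146 genes were called by limma, or 17.8%, against 2.98% of all genes, with 14 higher and 12 lower (backgrounds 1.53% and 1.44%). In NEO-OUT versus wild-type 35 were called, or 24.0%, against 6.35% of all genes, with 18 higher and 17 lower (backgrounds 3.34% and 3.01%). The values for single genes stood close together. B3gnt3 had a log2 fold change of 2.12 (SE 0.30) in NEO-IN and 2.30 (SE 0.30) in NEO-OUT. Bst2 had 0.81 (SE 0.11) and 0.91 (SE 0.11), and Ocel1 -1.13 (SE 0.22) and -1.20 (SE 0.22), in NEO-IN and NEO-OUT. Over the 29 called genes, the median size of the direct difference between NEO-IN and NEO-OUT was 0.07 on the log2 scale, with a median SE of 0.07. Pde4c was the only one of the 29 that differed between the strains by limma, and in the other 28 the difference was at most 0.27 in size. Among all 16430 genes tested, 13.3% were called between the strains, and the median size of the difference was 0.11.

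**Figure D4:**
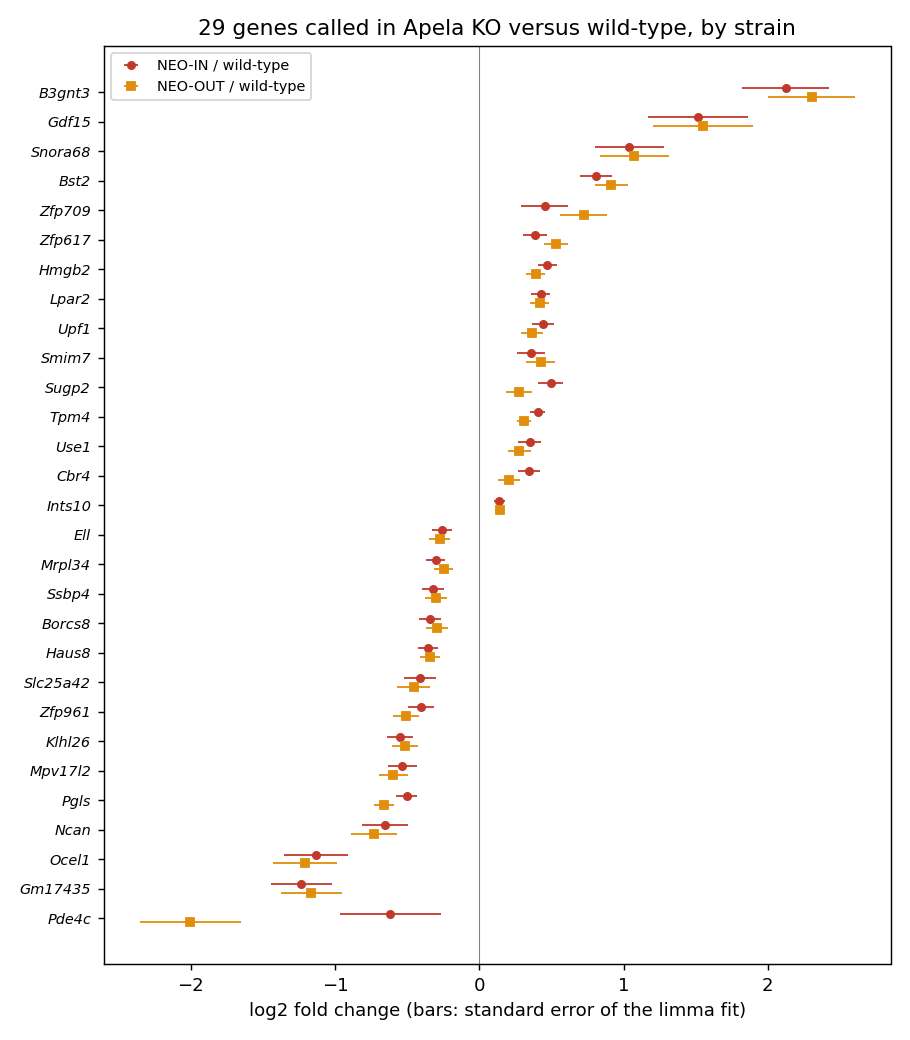
Log2 fold change with its standard error for the 29 genes called in knockout versus wild-type, in NEO-IN (circles) and in NEO-OUT (squares), both over the same 3 wild-type embryos, ordered by the mean of both. The error bars of the strains overlap or nearly touch in most genes; Pde4c stands apart, at -0.62 in NEO-IN and -2.004 in NEO-OUT.

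The genes closest to Apela were examined for themselves. To the smaller-coordinate side, Tmem192, a lysosomal membrane protein, had 1329 to 1632 normalized counts in NEO-IN, 1154 to 1631 in NEO-OUT and 1522 to 1729 in wild-type (log2 fold change -0.10, SE 0.09). Klhl2, a kelch-family adaptor of a ubiquitin ligase, is taken up with the strain difference below. Msmo1, an enzyme of sterol synthesis, had a log2 fold change of 0.05 (SE 0.06), and Cpe, the carboxypeptidase that trims peptide hormones, one of 0.03 (SE 0.09). Neither was called, with ranges that overlapped between all 3 groups. To the larger-coordinate side, Tma16, a ribosome biogenesis factor, was at 0.00 (SE 0.05) and Naf1, an assembly factor of H/ACA ribonucleoproteins, at 0.11 (SE 0.04). The receptor gene Npy1r was at -0.25 (SE 0.26) and the acetyltransferase gene Nat1 at 0.10 (SE 0.24). Tktl2, a relative of transketolase, had 7.81 to 27.8 normalized counts in NEO-IN, 3.82 to 29.4 in NEO-OUT and 0 to 8.31 in wild-type, with a log2 fold change of 1.84 (limma SE 0.60, adjusted p = 0.108). At this low level the SE of Tktl2 was the largest among these nearest genes, where the others ran from 0.04 (Naf1) to 0.26 (Npy1r). None of the 5 nearest genes on each side, Tll1 among them, was called in knockout versus wild-type, where 2.83% of all genes were.

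The direct comparison of NEO-IN with NEO-OUT needs no wild-type embryo. Here 15 of the 146 genes were called by limma, or 10.3%, against a background of 13.3% of all genes, with 4 higher and 11 lower in NEO-IN (backgrounds 6.74% and 6.52%). The share near Apela was thus not above the background, and the median size of the difference was 0.08 on the log2 scale for the 146 genes and 0.11 for all genes. Pde4c had the largest difference. It had 15.9, 36.1 and 48.8 normalized counts in NEO-IN, 6.39, 13.4 and 17.2 in NEO-OUT and 66.5, 37.6 and 52.2 in wild-type. NEO-IN embryo 3, at 15.9, lay among the NEO-OUT embryos, and all other NEO-IN embryos were above them (log2 fold change 1.39, limma SE 0.29, adjusted p = 0.00435). Against wild-type, Pde4c fell in NEO-OUT (-2.004, limma SE 0.35, adjusted p = 0.0032), and its value in NEO-IN was -0.62 (limma SE 0.35, adjusted p = 0.373).

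Klf2 and F2rl3 were lower in the NEO-IN strain than in NEO-OUT. Klf2, a transcription factor that endothelial cells induce under flow, had 94.1, 136 and 149 normalized counts in NEO-IN, 160, 177 and 240 in NEO-OUT and 131, 97.0 and 106 in wild-type. NEO-IN and NEO-OUT did not overlap (log2 fold change -0.49, limma SE 0.14, adjusted p = 0.0248). F2rl3, a thrombin receptor, had 55.5, 74.5 and 108 normalized counts in NEO-IN, 87.4, 126 and 151 in NEO-OUT, and 99.8, 65.3 and 88.5 in wild-type (-0.63, limma SE 0.19, adjusted p = 0.0405). Klf2 was also higher in NEO-OUT than in wild-type (0.72, limma SE 0.17, adjusted p = 0.0169).

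Differences of the same sign but smaller size were called for Clcn3, Klhl2 and Tmem38a. Clcn3, an endosomal chloride and proton exchanger, had 7070, 7510 and 7757 normalized counts in NEO-IN, 8174, 8532 and 9157 in NEO-OUT and 7509, 7308 and 6818 in wild-type. The strains did not overlap (log2 fold change -0.20, limma SE 0.04, adjusted p = 0.00222). Klhl2, 0.24 Mb from Apela, had 5433, 5816 and 6072 normalized counts in NEO-IN, 5985, 6716 and 7205 in NEO-OUT and 5959, 5930 and 5561 in wild-type (-0.21, limma SE 0.04, adjusted p = 0.00524). Against wild-type, Clcn3 and Klhl2 rose in NEO-OUT, by 0.25 (limma SE 0.05, adjusted p = 0.00453) and 0.20 (limma SE 0.05, adjusted p = 0.0313). Tmem38a, a potassium channel of the sarcoplasmic reticulum, was lower in NEO-IN by -0.30 (limma SE 0.08, adjusted p = 0.0212).

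Higher in NEO-IN than in NEO-OUT beside Pde4c were Pik3r2, a regulatory subunit of phosphoinositide 3-kinase (0.20, SE 0.06), Sh3rf1, a scaffold with ubiquitin ligase activity (0.17, SE 0.05), and Colgalt1, which adds galactose to collagen (0.12, SE 0.04). Of these calls between strains, those of Pde4c, Clcn3, Klhl2 and Tmem38a held in all 15 fits that left out 1 library. In the fit of only the libraries without Y-linked reads, Pde4c (limma adjusted p = 0.00684) and Clcn3 (0.0498) were called, while Klhl2, Tmem38a, Klf2, F2rl3, Pik3r2, Sh3rf1 and Colgalt1 were not (0.0797 to 0.356). Klf2 lost its call without NEO-OUT embryo 10 (limma adjusted p = 0.0589), and Pik3r2 without NEO-IN embryo 3 (0.0505) or NEO-OUT embryo 10 (0.0527). F2rl3 lost it in 8 of the fits (adjusted p of 0.0587 to 0.0877), without NEO-IN embryos 2, 3, 4 and 5 and NEO-OUT embryos 7, 8, 9 and 11. Sh3rf1 lost it in 9 (0.0508 to 0.0842), without NEO-IN embryos 1 to 5 and NEO-OUT embryos 9 to 12. Colgalt1 lost it in 11 (0.0526 to 0.0945), without every library but NEO-IN embryo 4 and NEO-OUT embryos 7, 8 and 10. Against wild-type, Klf2 in NEO-OUT was no longer called without wild-type embryo 2 (limma adjusted p = 0.0922) or 3 (0.0702), and Klhl2 in NEO-OUT without wild-type embryo 1, 2 or 3 or NEO-OUT embryo 10 or 12 (0.0571 to 0.158).

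**Figure D5:**
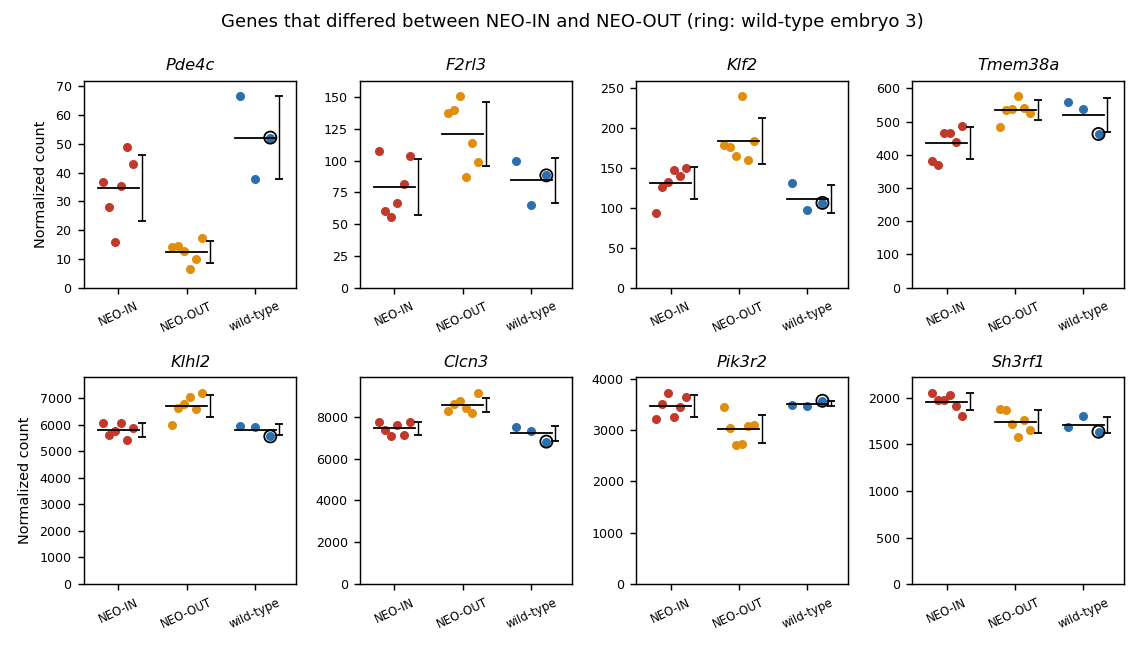
Normalized counts per embryo (points; line, mean; bar, SD; axes start at 0; ring, wild-type embryo 3) of 8 genes called in NEO-IN versus NEO-OUT by limma. Pde4c, Pik3r2 and Sh3rf1 are higher in NEO-IN, the other 5 are lower in NEO-IN, and Klf2 and Clcn3 show no overlap between the 2 strains.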

How the data were processed

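The deposited file gives signal values for 45232 genes in 15 libraries: read counts that the authors scaled by 1 size factor for each library (normalized counts). Per the labels, libraries were made from poly(A) RNA of single embryos with a stranded kit. kallisto, STAR, featureCounts, Picard, DESeq2 and the build mm10 are named, without roles or versions, per the submitters' processing notes. Dividing each library by its step gave whole reads for 100.0% of values (within 0.01). Between 76.9% and 79.1% of recovered counts from 1 to 20 were even, so independent fragments may be fewer than reads. In 1 cell a stray letter was dropped, and 0 columns were left unmapped. Gene spans came from GENCODE vM21 (GRCm38), which held 98.57% of the identifiers.

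limma-trend (limma 3.58.1, R 4.3.3) was fitted to log2(normalized count + 1) of 16430 genes with a mean of at least 10, with 3 groups and all libraries in a single fit. That scale understates the fold changes of low genes. Adjusted p under 0.05 (Benjamini-Hochberg over all genes tested) counted as called. On the log2 scale, a knockout value is the mean of both strain effects. Alternatives changed the low-value minimum, the pseudocount, the scaling, the samples fitted, a sex covariate and the block, left out single libraries, and used edgeR 4.0.16 and DESeq2 1.42.0 on recovered reads; the fits were tested on simulated data.

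The members, gene lists and naming rule were chosen with earlier results of these data known. The rule named each gene called in knockout versus wild-type that has a symbol other than a gene model, the 5 largest changes in each direction between strains, genes called in 1 strain and between strains, the 5 nearest genes on each side of Apela, and up to 2 genes per role list; 1 gene that the rule named is not reported here. Figures were drawn with matplotlib 3.10.9.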

Additional observations from a re-analysis of the deposited data

Results flagged for a closer look

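In 9 of 96 groups of 6 knockout embryos examined for the named genes, 1 embryo stood far from the other 5 by Dixon's criterion, which chance meets in about 1 of 20 groups. NEO-OUT embryo 10 was high for Klf2 (239.7 normalized counts against 159.7 to 184.2 in the other NEO-OUT embryos), Npy1r (104.4 against 38.18 to 56.81) and Sin3b (5091 against 3791 to 4080). NEO-OUT embryo 9 was high for Tktl2 (29.37 against 3.818 to 11.24) and low for Tmem192 (1154 against 1540 to 1631). The 4 macrophage markers summed to 4132 normalized counts in this embryo, against at most 43.0 in NEO-IN and 35.4 in wild-type embryos, and their part in these values was not tested. NEO-OUT embryo 11 was high for Cpe (1315 against 1011 to 1104) and NEO-OUT embryo 7 for Snora68 (68.35 against 45.06 to 49.34). NEO-IN embryo 1 was high for Smim7 (4987 against 3750 to 3901) and NEO-IN embryo 3 for Mrpl34 (2561 against 2314 to 2402).

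In 15 genes of the window the effects of the 2 strains differed by limma's direct contrast of NEO-IN with NEO-OUT. Among them, the log2 fold changes of the genes described above were 1.39 (Pde4c), 0.20 (Pik3r2), 0.17 (Sh3rf1), 0.12 (Colgalt1), -0.63 (F2rl3), -0.49 (Klf2), -0.30 (Tmem38a), -0.21 (Klhl2) and -0.20 (Clcn3). A further 5, named after their values were seen, were the pseudogene Gm9755 (-0.80), the noncoding 2500002B13Rik (-0.68), Fbxo8 (-0.19), Dda1 (-0.14) and Galnt7 (-0.13).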

How the results depend on the processing

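Among the named genes, no log2 fold change called in the full fit or in an alternative changed sign between these fits. Values called in neither fit were not compared by sign. Of the 146 genes, 29 were called for both knockout strains together, 26 for NEO-IN and 35 for NEO-OUT, each against wild-type, and 15 between the strains. Leaving out 1 library gave ranges of 10 to 34, 12 to 31, 16 to 40 and 9 to 15 in the same order. The share of all genes called moved too, over 0.931% to 2.9%, 1.25% to 3.64%, 2.33% to 7.5% and 10.2% to 13.7%. The lowest counts against wild-type came without wild-type embryo 1 or 2, and the lowest between strains without NEO-IN embryo 3. Only libraries without Y-linked reads, which are fewer, gave 17, 16, 23 and 4, against 2.15%, 2.26%, 4.89% and 7.41% of all genes; the level of Y-linked genes as a covariate gave 19 for both strains together, against 1.85%. Runs of 3 consecutive libraries as a random block gave 18 for both strains together, 15 for NEO-IN and 8 between the strains, against 1.14%, 1.44% and 8.72%. The cause of these moves was not tested. edgeR called 31, 26, 36 and 15, against 2.97%, 3.20%, 6.45% and 13.1% of all genes. DESeq2 called 40, 35, 41 and 16, against higher shares of all genes, 5.47%, 5.65%, 9.95% and 16.3%. Low-value minima of 1 and 50, pseudocounts of 0.5 and 8 and TMM scaling kept each count within 1.5 times.

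Replicate numbers are shared by NEO-IN and wild-type embryos 1 to 3. The deviations of these embryos from the group means correlated at 0.05, 0.02 and 0.00, which gave no sign of pairing by number. With 3 embryos per group and no litter or batch in the labels, pairing cannot be settled from these values. With the number as a replicate block, 16 genes were called between these 6 libraries, against 2.96% of all genes, and 20 without the block, against 3.30%, a fit chosen after seeing the data. Depth limits genes near the minimum, such as Gdf15 and Tktl2, and 3 wild-type embryos limit every comparison with wild-type.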

Other observations

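Per knockout embryo, the share of the 146 genes outside the range of the 3 wild-type embryos was 60.3% to 80.1%, against 57.8% to 70.2% of all genes tested, and it was the higher of both in each of the 12 embryos. NEO-IN embryo 1 had the highest share, 80.1% against 67.5% of all genes. All 12 shares were taken against the same 3 wild-type embryos, so they are not independent. Within groups, the median SD on the log2 scale was 0.137 for the 146 genes and 0.145 for all genes. It differed between parts of the window, which also differed in expression level. The SD was 0.220 for the 13 genes within 2.5 Mb of Apela (median normalized count 236). It was 0.129 for the 86 genes between 5 and 7.5 Mb (1033). Between 2.5 and 5 Mb it was 0.224 for 24 genes on the larger-coordinate side (376) and 0.089 for 8 genes on the smaller-coordinate side (1760). Distance and level were not separated.

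Genes called against wild-type in a single strain, outside the mean of both, included Cep44, Zfp866 and Hapln4 in NEO-IN and Clcn3, Palld, Klhl2, Rab3a, Myo9b, Tmem221 and Klf2 in NEO-OUT; Cep44, Tmem221 and Myo9b are named after their values were seen. Of these, Clcn3, Klhl2 and Klf2 differed between the strains by limma, and the others did not pass that test. Tmem221, close to Bst2, had 11.7 to 18.8 normalized counts in NEO-IN, 14.9 to 33.7 in NEO-OUT and 6.52 to 14.5 in wild-type, and a log2 fold change in NEO-OUT of 1.30 (SE 0.31, limma adjusted p = 0.0205).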
